A study of Mus musculus with 20 samples.

Results

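Keratinocytes of mice that carry floxed Cyp11b1 alleles and no Cre were compared between injected and topical tamoxifen treatment, with 5 mice on each side. These 10 libraries were chosen by genotype and treatment in the labels, out of 20 in all. Without Cre the Cyp11b1 gene stays intact, so that this comparison concerns the treatment and not the deletion. The study was set up to remove local glucocorticoid synthesis from keratinocytes, and the floxed mice are its littermate controls. Topical controls (Cre-negative Cyp11b1 L2/L2, topical tamoxifen) had 20 µl put on the ear and 100 µl on the back each day, in ethanol and after dry shaving of the back. Systemic controls (Cre-negative Cyp11b1 L2/L2, intraperitoneal tamoxifen) were injected daily with 100 µl of 10 mg/ml in an oil-ethanol mix, with no shaving mentioned. Both groups were treated on 5 days and cells were taken on day 6, from ear and dorsal skin together. The other 10 mice, K14-CreERTam x Cyp11b1 L2/L2 knockouts (cKO, 5 topical and 5 systemic), share no library with the controls and had the same 2 treatments. In the cKO the Cre is driven by the K14 promoter, that of a keratin made in basal keratinocytes. The site of delivery, the vehicle, shaving and the dose that reached the skin all differed between the routes and cannot be told apart. Age and sex were not given in the sources used here, and no group without tamoxifen was analysed here.

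The epidermis is built by keratinocytes that divide in a basal layer, attached to the basement membrane by integrins and laminins, and then differentiate upwards into the cornified barrier. Tamoxifen is an estrogen receptor ligand that is activated by liver metabolism and, as a cationic amphiphilic drug, can accumulate in lysosomes. Lysosomal genes are controlled in many cells by the MiT/TFE transcription factors (Tfeb, Tfe3, Mitf), which are held in the cytoplasm by mTORC1 through the Rag GTPases and the Ragulator complex when nutrients are plentiful.

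Library totals were 12343474 to 31007191 counts in topical controls and 15584348 to 27144352 in systemic controls, and 3 mice in each group were male by their Y-linked transcripts. Mitochondrial transcripts took 2.89% to 5.78% of topical and 1.87% to 6.42% of systemic counts. Keratinocyte markers were abundant in both groups: 12 of them summed to 104100 to 130000 CPM (counts scaled to library size) in topical and 117400 to 138000 CPM in systemic controls, and 2 of the 12 were called higher. Leukocyte Ptprc reached at most 0.0810 CPM in topical and 0.147 CPM in systemic libraries, and Trem2, Gzmb, Ly6g, Retnlg, Cma1, Fcer1a and Mcpt4 of the macrophage, T cell, neutrophil and mast cell lists were at 0 in all 10. Other leukocyte markers were detected, such as Cd74 at 5.92 to 25.9 CPM and Csf1r at 1.94 to 4.94 CPM, and neither was called. Of the erythroid markers, which summed to 0.723 to 3.55 CPM in topical and 1.23 to 6.34 CPM in systemic controls, Hba-a1 was called higher (1.02, adjusted p 0.0399, edgeR). Systemic controls 3 and 6 had more genes detected (16915 and 18750) than the other systemic (15020 to 15239) and topical controls (14672 to 15378). The libraries of the 2 groups also stood apart in a further way. A group of 12 predicted genes whose sequences largely repeat one another, called satellite-like here after the repeats near centromeres, summed to 0.839 to 13.9 CPM in topical controls and to 79.4, 11670, 1937, 2004 and 8412 CPM in systemic controls 1, 3, 4, 5 and 6. In controls this split follows the route exactly and the 2 cannot be told apart. Among the 5 systemic cKO libraries, systemic cKO 2 alone was high (37290 CPM), and the other 4 had 1.10 to 5.50 CPM, so shared counts in cKO and the calls of leading genes are also given without it. List counts in cKO include it. Cyp11b1 itself had at most 5 counts in any control library.

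Injected and topically treated control mice differed widely. The fit covered 12424 genes, and 2277 (18.3%) passed an adjusted p of 0.05 (edgeR quasi-likelihood test), 1263 of them higher after injection (10.2%) and 1014 lower (8.16%). Most changes were moderate: the median log2 fold change was 0.88 among higher and -0.72 among lower genes, 755 called genes (6.08% of those tested) differed by at least 2-fold and 101 by at least 4-fold. The 5 libraries of each group did not overlap for 1715 genes (13.8%), of which 1456 were called. The first principal component of the 10 libraries held 41.9% of the variance and placed all topical controls (-41.8 to -21.2) below all systemic controls (1.88 to 58.2). In this bulk measure, fewer cells that make a transcript and less of it per cell cannot be told apart. Leaving out 1 mouse at a time gave 1464 (without systemic control 3) to 2523 called genes, and with the log2 satellite-like level as a covariate 118 genes were called, 106 of them in common.

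Gpnmb showed the largest decrease after injection of all called genes at 10 CPM or more. It encodes a transmembrane glycoprotein of lysosomes and melanosomes and is a target of MiT/TFE factors. Topical controls had 539, 390, 448, 336 and 428 CPM, and systemic controls 4.02, 8.94, 5.53, 3.001 and 3.30 CPM. Every systemic library was far below every topical library, with no intermediate value. The mean went from 428 ± 75.0 to 4.96 ± 2.43 CPM (SD, n = 5 each), or -6.43 on the log2 scale (SE 0.37, adjusted p 4.56e-10, edgeR). In cKO mice the level was 390 to 890 CPM after topical treatment and 4.69 to 11.5 CPM after injection, and the log2 fold change of -6.64 was close to that in controls (difference 0.21, SE 0.43, adjusted p 0.871). Gpnmb stands in a melanocyte marker list as well. Without Gpnmb the list summed to 4.39 to 14.7 CPM in topical and 8.30 to 38.2 CPM in systemic controls, and the pigment cell gene Pmel was at 3.35 to 9.26 and 6.11 to 21.5 CPM and was called higher after injection (0.77, adjusted p 0.0142). The gene lies on chromosome 6 of GRCm38 (chr6:49036518-49058182, forward strand).

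Further genes were low after injection in both genotypes. Mmp13, the collagenase made by keratinocytes that migrate in wounds, was at 0.857, 0.788, 2.59, 1.07 and 1.15 CPM in topical and 0.128, 0.162, 0.263, 0.214 and 0.194 CPM in systemic controls, and fell by 2.70 on the log2 scale (SE 0.54, adjusted p 0.00201, edgeR). The groups did not overlap, but the gene was below 3 CPM in every control library. Pyy, which encodes the gut peptide YY, had 26.1, 207, 4.78, 14.7 and 67.0 CPM in topical and 2.30, 0.808, 3.55, 3.93 and 1.82 CPM in systemic controls (log2 fold change -4.72, SE 1.03, adjusted p 0.00492). Its topical level was highest in topical controls 3 and 7, the 2 females of that group by Y-linked transcripts, and the lowest topical library was only just above the highest systemic one. In topical cKO it was at 106 to 325 CPM in the 3 females and 8.09 and 38.1 CPM in the 2 males. With sex as a covariate Pyy remained called in controls, but a sex term shared by both routes cannot take up a level high in topical females only. Ceacam12 (-2.69), Spib (-3.37), a transcription factor of the Ets family, and S1pr3 (-2.52), a receptor for sphingosine 1-phosphate, completed the 6 genes with the largest decreases shared by both genotypes. In cKO these 5 fell by 2.53 to 4.88 on the log2 scale; without systemic cKO 2, Spib lost its call there (adjusted p 0.0839). Bri3, a small membrane protein of endosomes and lysosomes, was at 7.23 to 10.3 CPM in topical and 2.42 to 4.20 CPM in systemic controls, and fell by 1.42 (adjusted p 3.71e-05) in controls and by 1.22 in cKO, and Trnp1, a nuclear protein, fell by 2.42 in controls and 1.42 in cKO. With the satellite-like covariate, Gpnmb, Bri3 and Trnp1 kept their calls, whereas Mmp13, Pyy, Ceacam12, Spib and S1pr3 did not.

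**Figure D1:**
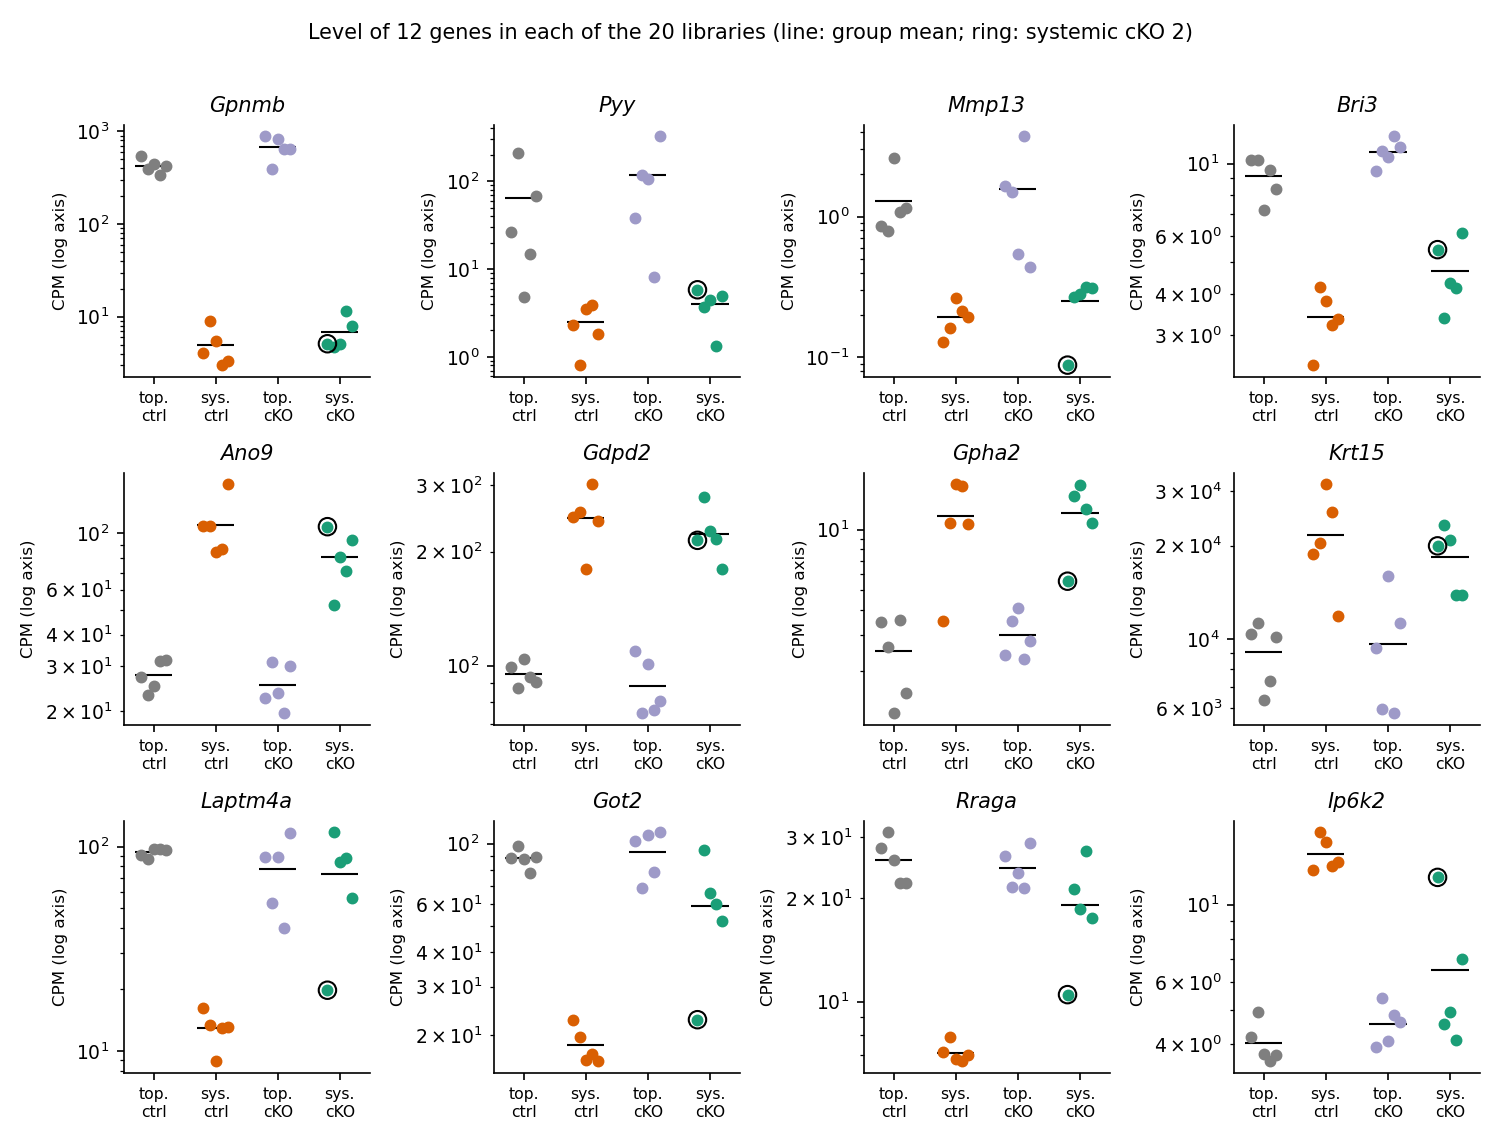
CPM on log axes of 12 genes in each library of the 4 groups (topical and systemic control, topical and systemic cKO), with points for mice, lines for group means and a ring around systemic cKO 2. Genes of the top 2 rows were called between routes in both genotypes, except Krt15, which was not called in cKO (adjusted p 0.0686, edgeR). In the bottom row systemic cKO 2 lies near the systemic controls (Laptm4a 19.8 against 8.88 to 16.2 CPM) and the other systemic cKO mice lie nearer the topical groups.

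The promoters of 3 genes that were low after injection are shown because the letters of 2 motifs tied to the regulators named here occur in them. The sequence TGANTCA is bound by AP-1 factors (Fos and Jun), and TCACGTGA, which contains the E-box CACGTG, is the element described for MiT/TFE factors at lysosomal genes. All 3 motifs read the same on both strands. Sequences are from RefSeq on GRCm38.p6, read 5′ to 3′ on the strand of the gene, with the motif in capitals. For Gpnmb, chr6:49036515-49036543 around the transcription start is given, for Mmp13 the 250 bases before the start (chr9:7272264-7272513, forward strand), and for Gla, the lysosomal alpha-galactosidase, the 250 bases before the start (chrX:134601006-134601255, reverse strand).
Gpnmb: ccaggggcaagTGACTCAtgagcacgagt
Mmp13: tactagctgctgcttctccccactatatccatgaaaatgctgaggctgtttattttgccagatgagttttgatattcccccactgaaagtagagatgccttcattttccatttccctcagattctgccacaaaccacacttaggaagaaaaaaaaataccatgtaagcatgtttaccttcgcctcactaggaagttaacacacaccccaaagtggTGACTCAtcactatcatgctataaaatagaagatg
Gla: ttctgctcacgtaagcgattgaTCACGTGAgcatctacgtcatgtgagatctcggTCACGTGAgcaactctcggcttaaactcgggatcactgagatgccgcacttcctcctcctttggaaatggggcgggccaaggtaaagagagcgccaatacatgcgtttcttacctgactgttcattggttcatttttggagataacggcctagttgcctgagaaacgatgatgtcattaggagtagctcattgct

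In windows from 250 bases before to 50 after the start, TGANTCA occurred in 6.32% of 9468 tested genes with a RefSeq promoter. It was in 6.74% of 816 genes lower after injection and in 6.74% of 965 higher genes. Of genes called in both genotypes, it was in 9.25% of the 173 lower and 8.29% of the 181 higher. CACGTG occurred in 12% of the tested genes, 14.8% of the lower and 11% of the 965 higher genes. Among lysosomal genes it was in 15 of 42 promoters (35.7%), and among those lysosomal genes that fell in 3 of 11 (27.3%). The longer TCACGTGA was in 2.3% of the tested genes, 3.31% of the lower genes and 7 of the 42 lysosomal promoters (16.7%). A match describes letters only, and binding was not measured.

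Lysosomal genes leaned downwards. Of 55 tested, 17 fell and 2 rose, with a median log2 fold change of -0.34 against 8.04e-04 over all genes tested, and in cKO 11 fell and 3 rose (backgrounds 4.02% and 5.19%, 9.22% in either direction). Summed over the list, topical controls had 4893 to 6533 CPM and systemic controls 3621 to 4496 CPM, without overlap. Atp6ap2, an accessory protein of the proton pump that acidifies lysosomes, was at 120, 110, 156, 119 and 126 CPM in topical and 64.8, 63.1, 59.5, 71.0 and 51.0 CPM in systemic controls. Its decrease of 1.03 on the log2 scale (SE 0.14, adjusted p 8.48e-05, edgeR) was matched by one of 0.86 in cKO, and it kept its call with the satellite-like covariate. Gla had 6.00, 7.72, 5.59, 5.71 and 5.58 CPM in topical and 1.40, 3.28, 2.50, 3.07 and 2.31 CPM in systemic controls (log2 fold change -1.28, adjusted p 5.12e-04). Other members that fell were Psap (-1.44), the precursor of the saposins that help break down sphingolipids, Cd63 (-1.11) and Npc2 (-1.02), a cholesterol carrier. The cholesterol exporter Npc1 (0.86) and the glycosidase Idua (0.50) rose. Of the list, 3 were called with the satellite-like covariate, all lower.

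Among MiT/TFE regulators and targets, 7 of 18 tested fell and 2 rose, with a median of -0.12. Beside Gpnmb, the members that fell belong to nutrient sensing: Rraga (-1.85), Rragc (-0.91) and Rragd (-1.94), which encode Rag GTPases, Lamtor1 (-0.74) and Lamtor3 (-0.65), subunits of Ragulator, and Flcn (-0.47), which acts on RagC and RagD. The factor Tfe3 (0.46) and the kinase Mtor (0.47) were modestly higher, but no member was called higher with offsets for GC content and transcript length. Rraga was at 22.1 to 30.9 CPM in topical and 6.72 to 7.92 CPM in systemic controls, with no overlap. In cKO the route difference of Rraga was -0.35 (adjusted p 0.228), and it differed from that in controls by -1.502 (SE 0.25, adjusted p 0.0115). Rragd, Flcn and Lamtor3 were lower in cKO as well (-3.61, -0.68 and -0.43), although Rragd averaged 0.53 CPM in topical and 0.11 CPM in systemic controls. Gpnmb and Rraga alone of the list were called with the satellite-like covariate, both lower.

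Other genes were low in all 5 systemic controls and in systemic cKO 2, but less so or not at all in the other 4 systemic cKO mice. Laptm4a, a lysosomal membrane protein, had 90.9, 87.3, 97.3, 97.4 and 96.0 CPM in topical and 16.2, 13.3, 8.88, 12.9 and 13.1 CPM in systemic controls, and fell by 2.86 on the log2 scale (SE 0.34, adjusted p 3.71e-05, edgeR). In systemic cKO 2 it was at 19.8 CPM and in the other 4 systemic cKO libraries at 55.9 to 118 CPM. The mitochondrial aspartate transaminase Got2 showed a similar pattern, with 78.1 to 98.3 CPM in topical controls, 16 to 22.7 CPM in systemic controls, 22.7 CPM in systemic cKO 2 and 52.3 to 94.5 CPM in the remaining systemic cKO. Of these, systemic cKO 5, 6 and 7 (66.1, 60.2 and 52.3 CPM) were below every topical control. Further genes called in controls and not in cKO were Arpc3 (-2.17), a subunit of the Arp2/3 actin nucleator, Gatd3a (-3.08), Vdac1 (-2.18), the main channel of the outer mitochondrial membrane, Hras (-1.58), Mtch1 (-1.44), a mitochondrial carrier homolog, Mettl7a1 (-2.01) and Ykt6 (-1.89), a SNARE of membrane fusion. Of these, Mtch1 in systemic cKO 2 (25.1 CPM) was above every systemic control (13.1 to 21.7 CPM) and near systemic cKO 4 (27.0 CPM), and Hras in the other 4 systemic cKO (24.8 to 34.1 CPM) was below every topical control. In cKO the route differences of these 9 genes lay between -0.66 and 0.16 and none was called. For the same genes without systemic cKO 2 the difference between genotypes was called for each, from -1.197 for Hras to -3.02 for Laptm4a. With the satellite-like covariate each of the 9 kept its call in controls, at -1.07 (Ykt6) to -1.91 (Gatd3a).

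Genes that rose after injection with the smallest adjusted p were spread over several functions. Ano9, an anoctamin of the family of chloride channels and scramblases, was at 27.4, 23.1, 25.2, 31.5 and 31.7 CPM in topical and 106, 107, 84.1, 86.7 and 156 CPM in systemic controls (log2 fold change 1.96, SE 0.20, adjusted p 7.31e-06, edgeR). The lowest systemic library was above the highest topical one, and in cKO the log2 fold change was 1.67. Gdpd2, a glycerophosphodiesterase, rose from 94.8 ± 6.89 to 245 ± 43.4 CPM (SD, n = 5 each), by 1.37 in controls and 1.33 in cKO. Plxna3, a semaphorin receptor, had 4.78 to 8.22 CPM in topical and 14.3 to 25.9 CPM in systemic controls (1.66). Mroh6 rose by 1.66 in controls and 1.43 in cKO. For these 4 genes the difference between genotypes was not called (adjusted p 0.352 to 0.967).

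For the other rising genes the value in cKO was smaller. Ip6k2, an inositol hexakisphosphate kinase, was at 3.57 to 4.94 CPM in topical and 12.6 to 16.1 CPM in systemic controls (1.79, adjusted p 4.72e-05, edgeR), at 12.0 CPM in systemic cKO 2 and at 4.11 to 6.999 CPM in the 4 other systemic cKO. Its route difference in cKO was 0.48 (adjusted p 0.191), and the difference between genotypes was called only without systemic cKO 2 (1.62, adjusted p 3.62e-04; with it 1.30, adjusted p 0.0649). Nisch (1.72) and Arrdc1 (1.55) also had called genotype differences without that library (1.31 and 1.23), and Nisch lost its call in cKO there (0.41). Clasp2 (1.11), a microtubule-binding protein, and Agrn (1.24), the basement membrane proteoglycan agrin, rose in both genotypes. Mlxip (1.13) and Dgkq (1.22) rose in controls and were not called in cKO (0.39 and 0.47), and they too had called genotype differences without systemic cKO 2 (0.79 and 0.86). With the satellite-like covariate the genes of this and the previous paragraph all kept their calls.

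By size, the leading increases at 10 CPM or more were those of Rgs11 (2.89), a regulator of G protein signalling, Metap1d (2.32), a mitochondrial methionine aminopeptidase, and Gpha2 (2.23), a glycoprotein hormone subunit. Gpha2 had 3.48, 2.63, 1.23, 3.57 and 1.55 CPM in topical and 3.51, 10.8, 16.8, 16.5 and 10.6 CPM in systemic controls. Systemic control 1 was within the topical range and the other 4 were above it. It rose by 2.03 in cKO as well, and with it Amer2 (3.22 in controls, 4.06 in cKO), Ifitm6 (2.78 and 4.99), Aifm3 (2.43 and 2.50), Grid2ip (2.13 and 1.89) and Pde1b (1.86 and 2.08) were the genes with the largest increases shared by both genotypes. Except for Gpha2 and Ifitm6 these reached at most 2.14 CPM in any control library, and Amer2 at most 0.437 CPM. Of the 6, Gpha2 alone kept its call with the satellite-like covariate. Without systemic control 6, Amer2 lost its call (adjusted p 0.0696), as did Pde1b without topical control 3, 5 or 6 or systemic control 5 (adjusted p up to 0.0751).

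Cytosolic ribosomal protein genes leaned downwards after injection, beside 8.16% lower over all genes tested. Of 80 tested cytosolic ribosomal protein genes, 40 fell and none rose, none of the 80 had a positive log2 fold change, and the median was -0.80. Together they made up 83660 to 101000 CPM in topical and 49140 to 72380 CPM in systemic controls. Rpsa was at 2132, 2035, 1692, 1973 and 2426 CPM in topical and 1057, 627, 507, 890 and 472 CPM in systemic controls (log2 fold change -1.53, SE 0.25, adjusted p 4.18e-04, edgeR), and every systemic library was lower than every topical one. Rpl12 (-1.68), Rps12 (-1.60) and Rpl29 (-1.42) were among the others that fell. In cKO no ribosomal protein gene was called and the median was -0.25, while Rpsa in systemic cKO 2 and 7 (990 and 1034 CPM) lay within the systemic control range and in the other 3 systemic cKO was at 1222 to 1775 CPM. Many ribosomal protein genes have processed copies in the genome, and how the counting shared such reads is not given in the sources used here. With the satellite-like covariate none was called, and leaving out systemic control 1, 3 or 6 gave 52, 29 and 32 lower.

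Cholesterol synthesis fell in 10 of 24 tested genes with a median of -0.61, with no member higher. Fdps, which makes farnesyl pyrophosphate, was at 380, 277, 400, 352 and 282 CPM in topical and 153, 80.3, 62.4, 134 and 110 CPM in systemic controls (-1.65, adjusted p 0.00274, edgeR). Nsdhl (-1.10), Acat2 (-1.01), Idi1 (-0.98), Cyp51 (-0.86), Mvk (-0.83), Fdft1 (-0.78) and Ebp (-0.75), all enzymes of the pathway, fell too, as did Srebf2 (-0.49), the transcription factor that controls them, and the sterol carrier Stard4 (-0.94). None was called in cKO, where the median was -0.36, and the genotype difference of Fdps was called without systemic cKO 2 (-1.85, adjusted p 0.00553) and not with it (adjusted p 0.128). The summed level of the list overlapped between groups (1729 to 3840 CPM topical, 1440 to 3117 CPM systemic). Without systemic control 3, 6 members were lower, and none was called with the satellite-like covariate. Of 9 sebaceous gland markers tested none was called, but only 1 was positive, with a median of -0.81 in controls and -1.01 in cKO. Their summed level overlapped between groups (1569 to 2010 CPM topical, 871 to 3591 CPM systemic). Whether the share of sebaceous cells differed between groups was not tested.

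In several stress and housekeeping lists more members fell than rose, beside 8.16% lower and 10.2% higher over all genes tested. Of 21 NRF2 genes, 7 fell and none rose, among them Hmox1 (-1.05), heme oxygenase 1, Nqo1 (-0.63), Ftl1 (-1.07), Tkt (-1.12) and Cbr3 (-1.04). Hmox1 was at 3.48 to 6.57 CPM in topical and 1.99 to 3.42 CPM in systemic controls and fell by 0.9987 in cKO too, where 5 members of the list were lower. Of 26 tested entries of the 25 ATF4 and unfolded protein response genes (the symbol Ddit3 is duplicated), 7 fell and 1 rose. Calr (-0.87), Atf4 (-0.60), Asns (-0.65), Psat1 (-0.72), Aars (-0.47), Dnajb9 (-0.42) and Vldlr (-1.13) were lower and Atf3 (0.86) was higher. The summed level of this list moved the other way, from 6264 to 7451 CPM in topical to 9196 to 14270 CPM in systemic controls without overlap, and Atf3 alone averaged 4977 CPM in topical and 9055 CPM in systemic controls. Proteasome subunits fell in 8 of 37, with 4 lower without systemic control 3 and 5 lower without systemic control 6. In glycolysis and hypoxia 3 of 24 fell, Gapdh (-1.30), Pgk1 (-1.09) and Gpi1 (-0.78), and all 3 fell in cKO as well (-1.10, -1.22 and -0.78, the last not called without systemic cKO 2). Nuclear genes of oxidative phosphorylation had a median of -0.40 and 77 of 78 negative values, but 3 passed the test (Atp5g2, Sdhd and Atp5pb), a share of 3.85% against the background of 8.16%. Leaving out systemic control 1 gave 10 lower. Vesicle transport fell in 7 of 44 and rose in 2. Of the NRF2, ATF4, proteasome and glycolysis members, none was called with the satellite-like covariate.

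**Figure D2:**
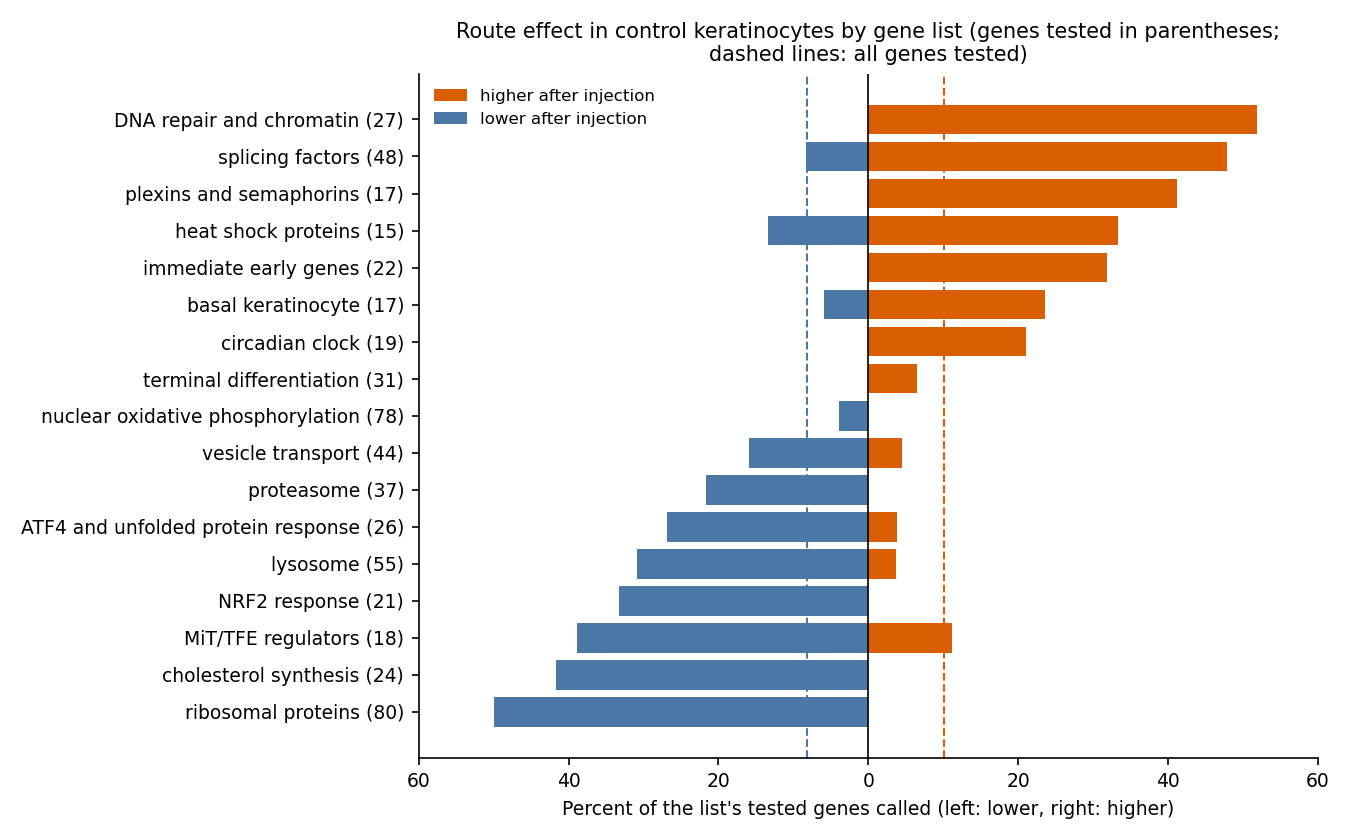
Percent of tested genes called lower (left, blue) and higher (right, orange) after injection in controls for 17 gene lists, with the number tested in parentheses and dashed lines for all genes tested (8.16% lower, 10.2% higher). Ribosomal proteins (50.0% lower) and DNA repair and chromatin genes (51.9% higher) lie at the extremes.

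More splicing factor and chromatin genes rose than fell after injection, beside 10.2% higher and 8.16% lower over all genes tested. Of 48 splicing factors, 23 rose and 4 fell, with a median of 0.41. Clk1, a kinase that phosphorylates SR splicing factors, was at 84.5, 105, 125, 102 and 120 CPM in topical and 208, 260, 227, 241 and 230 CPM in systemic controls (1.12, SE 0.17, adjusted p 2.62e-04, edgeR), and rose by 1.39 in cKO. Pnisr (2.01), Rsrp1 (1.93), Srsf2 (1.49), Srrm2 (1.47), Luc7l2 (1.27), Rbm39 (1.16) and Srsf7 (1.14) rose, while U2af1 (-1.43), Rbm3 (-1.10), Hnrnpa1 (-0.86) and U2af2 (-0.73) fell. In cKO 4 of the list rose. Of 27 DNA repair and chromatin genes, 14 rose and none fell, and all 27 had positive values (median 0.66). These included the histone methyltransferases Kmt2b (1.61), Kmt2d (1.51), Kmt2a (1.16) and Kmt2c (1.05), the acetyltransferase Ep300 (0.82) and the DNA repair kinase Prkdc (0.85). Kmt2d was at 23.7 ± 5.11 CPM in topical and 67.7 ± 14.4 CPM in systemic controls (SD, n = 5 each). In cKO none of them was called, and with offsets for GC content and transcript length the count in controls went from 14 to 6 and the median to 0.32. With the satellite-like covariate 1 splicing factor (Srsf7) and no chromatin gene was called. Leaving out systemic control 3 gave 15 higher splicing factors and 7 higher chromatin genes, and leaving out systemic control 6 gave 8 higher chromatin genes.

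Higher and lower genes differed in length. Called higher genes had a median transcript length of 4314 bases and lower genes 2733, against 3318 over all genes tested. When genes were split into 4 equal classes by length, in the longest class 17.5% were higher and 3.90% lower, and in the shortest class 5.25% were higher and 11.1% lower. In cKO the median log2 fold change also rose with length, from -0.11 in the shortest to 0.10 in the longest class, and in controls from -0.16 to 0.24. GC content moved less, with a median of 51.5% in higher and 49.9% in lower genes. The offsets, which take out such trends library by library, left 2234 genes called, 1786 of them in common.

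**Figure D3:**
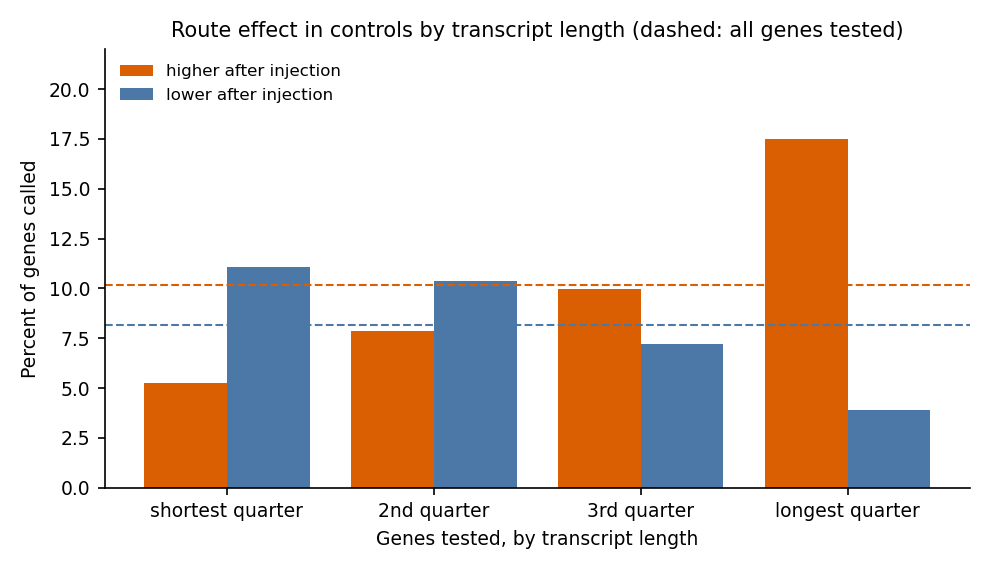
Percent of tested genes called higher (orange) and lower (blue) after injection in controls, in 4 equal classes of transcript length, with dashed lines for all genes tested. The share of higher genes rises from 5.25% to 17.5% from the shortest to the longest class, while that of lower genes falls from 11.1% to 3.90%.

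Some immediate early genes were higher after injection. Of 22 tested, 7 rose and none fell in controls, with a median of 0.68, and 7 rose in cKO. Egr1, an early growth response factor, was at 563, 766, 210, 373 and 484 CPM in topical and 1412, 825, 1625, 1332 and 536 CPM in systemic controls (1.26, SE 0.37, adjusted p 0.0214, edgeR), where systemic control 6 lay within the topical range. Btg2 (1.17), Fosl1 (0.95), Egr3 (0.87), Atf3 (0.86), Fos (0.83) and Fosl2 (0.57) rose too. The list summed to 29730 to 40320 CPM in topical and 50960 to 70370 CPM in systemic controls, without overlap. Leaving out systemic control 1 gave 4 higher members and leaving out systemic control 6 gave 13, while none was called with the satellite-like covariate. These genes also answer to tissue dissociation, and the time between killing and sorting is not given in the sources used here.

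Of 15 heat shock genes, 5 rose and 2 fell. Dnajb1, a cochaperone of Hsp70, was at 1184, 1362, 706, 914 and 931 CPM in topical and 3601, 2028, 4904, 5325 and 1712 CPM in systemic controls (1.79, SE 0.32, adjusted p 7.13e-04, edgeR), and all systemic libraries were above the topical ones. It rose by 1.82 in cKO and was the only one of the list called with the satellite-like covariate. Hspb1 (1.10), Hsf1 (0.92), Hspa1a (0.91) and Dnaja1 (0.57) rose, and the mitochondrial chaperonins Hspe1 (-0.78) and Hspd1 (-0.70) fell. Of 19 clock genes, 4 rose and none fell: Per3 (1.45), Per1 (0.99), Cry2 (0.82) and Cry1 (0.62), which encode the repressor limb of the clock. Per3 overlapped between groups, with 4.35 to 9.68 CPM in topical and 9.28 to 29.2 CPM in systemic controls, and had no call in cKO (0.14), and no clock gene was called with the satellite-like covariate. Of 17 plexins and semaphorins, 7 rose and none fell, led by Plxna3 and with Sema4g (1.39), Plxnd1 (1.14) and Sema3c (1.11) among them. With offsets for GC content and transcript length 4 rose and the median went from 0.52 to 0.22, with the satellite-like covariate Plxna3 alone was called, and without systemic control 6 1 member was lower. The hour at which cells were taken is not given in the sources used here.

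Of 17 basal keratinocyte genes, 4 rose (23.5%, against 10.2% of all genes tested) and 1 fell, and the median was 0.53. With offsets for GC content and transcript length 3 rose and the median was 0.21, and with the satellite-like covariate none was called. Krt15, a keratin of basal and hair follicle bulge cells, was at 10360, 11260, 6367, 7330 and 10130 CPM in topical and 18750, 20460, 31540, 25720 and 11850 CPM in systemic controls (1.25, SE 0.32, adjusted p 0.00922, edgeR), with no overlap, and in cKO its difference was 0.93 (adjusted p 0.0686). Lama5 (1.83) and Col7a1 (1.41), which encode the laminin alpha 5 chain and the collagen of anchoring fibrils, and Plec (0.66), plectin of the hemidesmosome, rose, and the tetraspanin Cd151 (-0.88) fell. Krt14 was at 30870 to 56560 CPM in topical and 37120 to 52530 CPM in systemic controls. Of 31 terminal differentiation genes, 2 rose, Flg2 (1.85) and Spink5 (0.74), a share of 6.45% and below the background of 10.2%, whereas in cKO 13 rose (Flg2 by 3.71 and Spink5 by 2.21). For neither gene was the difference between genotypes called with all libraries (adjusted p 0.199 and 0.0621), but that of Spink5 was without systemic cKO 2 (adjusted p 0.00405). Of 23 barrier lipid enzymes, Slc27a4 (-1.35), Degs1 (-0.75) and Abhd5 (-0.56) fell and Sgms1 (0.82) rose.

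Genes of wounding and inflammation showed few changes in controls. In the wound list of 22, Mmp13, Plau (-1.41), the urokinase that activates plasminogen, and Tnc (-1.21), tenascin C, fell. Tnc was at 8.79 ± 3.90 CPM in topical and 3.81 ± 0.416 CPM in systemic controls (SD, n = 5 each), fell by 1.42 in cKO, and kept its call with the satellite-like covariate, as did Plau. In cKO 7 members of the list fell and 3 rose. Without systemic control 1 the count of lower members in controls was 7. The list's summed level ran from 9711 to 33600 CPM in topical and 7709 to 25850 CPM in systemic controls, so mice of one group differed more than 3-fold. Of 22 keratinocyte inflammation genes, Tnf (-1.79) fell and Il33 (0.85) and Nfkbiz (0.89) rose. None of the list was called without systemic control 3 or with the satellite-like covariate. Il33 kept its call in 4 and Nfkbiz in 3 of 10 fits without 1 control library. Tnf was high in topical controls 3 and 7 (15.4 and 10.3 CPM), and at 1.64 to 2.50 CPM in the other topical and 0.702 to 2.93 CPM in the systemic libraries. These 2 mice are the females of the group, and Postn, periostin, was high in them too: it was at 756 and 388 CPM in topical controls 3 and 7, 41.5 to 72.5 CPM in the other 3 and 20.7 to 90.4 CPM after injection (-2.61, adjusted p 0.0168, edgeR). Tnc, S1pr3 and Spib were also highest in these 2. With sex as a covariate Tnf, Postn, Tnc, S1pr3 and Spib remained called. A sex term shared by both routes cannot take up a level high in topical females only. Tnf kept its call in 4 of 10 fits without 1 control library and lost it without topical control 3 or 7. Postn lost its call without topical control 3 or systemic control 3, and the other 3 genes kept theirs in all 10. Of 18 interferon-stimulated genes Usp18 (1.65) alone was called, and of 22 antigen presentation genes Nlrc5 (1.45) rose and Psmb10 (-1.05) and Erap1 (-0.45) fell.

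Steroid and drug response lists are set beside 10.2% higher and 8.16% lower over all genes tested. Of 21 glucocorticoid-induced genes, Fkbp5 (-1.39), Ddit4 (-1.196) and Klf15 (-0.99) fell and Per1 rose, with a median of -0.26. Fkbp5, a cochaperone of the glucocorticoid receptor, was at 3.63, 2.995, 2.39, 5.85 and 3.25 CPM in topical and 0.638, 1.56, 0.921, 1.72 and 1.87 CPM in systemic controls (SE 0.43, adjusted p 0.0275, edgeR), without overlap. Klf15 fell in cKO too (-1.80). Without systemic control 3 none of the 3 lower genes was called. Of 9 estrogen receptor genes only the coactivator Ncoa3 (0.73) was called. Of 25 xenobiotic genes, Abcb1b (0.90), Ahr (0.72) and Tiparp (0.70) rose (12%), and Ugt1a6a (-0.89), Ugt1a7c (-0.89) and Cyp3a13 (-0.42) fell (12%). Without systemic control 3 or without systemic control 6, 1 member was higher and none lower, and none was called with the satellite-like covariate. Ugt1a genes share exons, so their reads may be split. Of 8 steroid genes tested, Nr3c2 (1.31), the mineralocorticoid receptor, was called, at no more than 1.08 CPM in any control library. Aldh2, the mitochondrial aldehyde dehydrogenase, fell by 1.76 (adjusted p 1.48e-04) from 144 ± 21.2 to 42.6 ± 5.597 CPM (SD, n = 5 each), and Crabp2, a retinoic acid carrier, rose by 0.83 in controls and 2.35 in cKO. The genotype difference of Aldh2 (-1.57, adjusted p 0.00387) and Crabp2 (-1.73, adjusted p 0.00166) was called only without systemic cKO 2.

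The remaining lists are to be read beside the 10.2% of all genes tested that were higher and the 8.16% that were lower. For fatty acid synthesis 2 of 15 fell (Scd2 -1.57, Elovl6 -1.48) and Dgat1 (0.46) rose. Of 20 genes of PPAR and fatty acid oxidation, Slc25a20 (-0.48) and Cpt1a (-0.43) were among those that fell and Ppard (1.65) rose. In proliferation 4 of 46 fell (Mcm3, Cdk1, Mcm5 and Pcna), a share of 8.70% and near that of all genes tested, and Cdca2 (1.57) rose. Without systemic control 3, 1 proliferation gene was lower, and without systemic control 6, 2 were lower. Of 22 p53 targets, 4 rose, among them Plk2 (1.49) and Cdkn1a (0.89), and 2 fell. In the actin list Flna (1.26) and Tln1 (0.71) rose and Arpc3 and Arpc4 (-0.81) fell, of 25 tested. Of 15 follicle stem cell genes Lgr6 (0.53) and Tcf7l2 (0.65) rose beside the fall of Postn. No hair shaft (11 tested) or metallothionein (9 tested) gene was called by edgeR, and of 9 mitochondrially encoded genes mt-Nd3 (-1.11) fell.

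The cKO mice offered the same route contrast in other animals. There, 1145 genes were called (9.22%), 645 higher (5.19%) and 500 lower (4.02%). Higher in both genotypes were 238 genes, 18.8% of those higher in controls and 36.9% of those higher in cKO, and lower in both were 214 (21.1% and 42.8%), while 3 genes were called in opposite directions. Without systemic cKO 2 the shared numbers were 174 and 174. Of the genes called in controls, 1112 of 1263 higher and 908 of 1014 lower had the same sign in cKO, at smaller size: the median in cKO was 0.35 and -0.31, and 0.24 and -0.26 without systemic cKO 2. The test of the difference itself called 31 genes (0.25%), 22 of which were called in controls, and 473 without systemic cKO 2. Beside Rraga, Arpc3, Laptm4a and Ykt6, the leading genes were Abhd11, which rose by 0.87 in controls and stood at -0.04 in cKO, Haus5 (1.26 and -0.19), a subunit of augmin, Med10 (0.58 and -0.17), a Mediator subunit, and Sulf2 (0.66 and -0.86), a sulfatase that trims heparan sulfate and the only one of these 8 called in opposite directions.

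**Figure D4:**
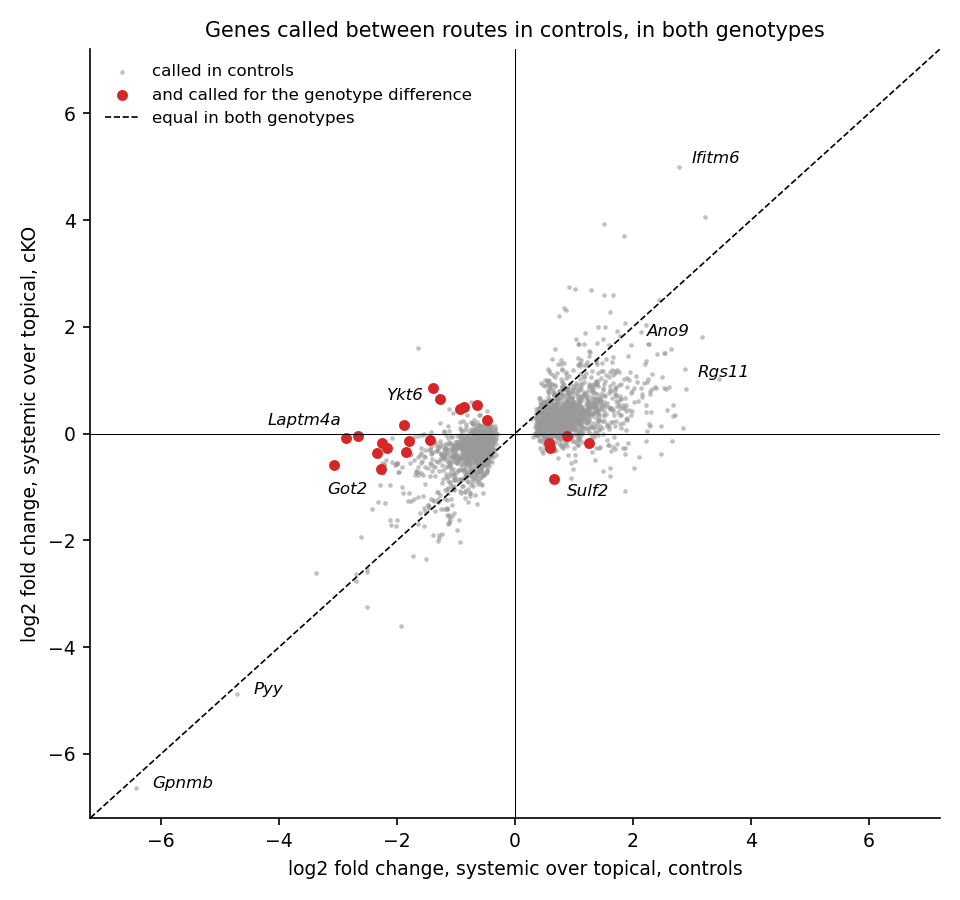
Log2 fold change of systemic over topical treatment in controls (horizontal) and cKO (vertical) for the 2277 genes called in controls, with the 22 that were also called for the genotype difference in red and a dashed line of equal change. Gpnmb and Pyy lie on the line, and Laptm4a and Ykt6 lie near 0 in cKO.

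Injected mice differed among themselves in how far they showed the pattern of the controls. For the genes called in controls, the difference of each systemic library from the topical mean of its genotype was taken and its median given. In systemic controls, where these genes were chosen, it was 0.63 to 1.11 for higher and -0.82 to -0.55 for lower genes. In systemic cKO 2, which entered the shared fit but not the contrast that chose the genes, it was 0.72 and -0.61, within the range of the controls. In systemic cKO 4, 5, 6 and 7 it was -0.02, 0.22, 0.33 and 0.48 for higher and -0.09, -0.22, -0.29 and -0.44 for lower genes. Systemic control 1, with the lowest satellite-like level of its group (79.4 CPM), had the smallest medians among the controls. Among control mice the satellite-like level and the route cannot be told apart.

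**Figure D5:**
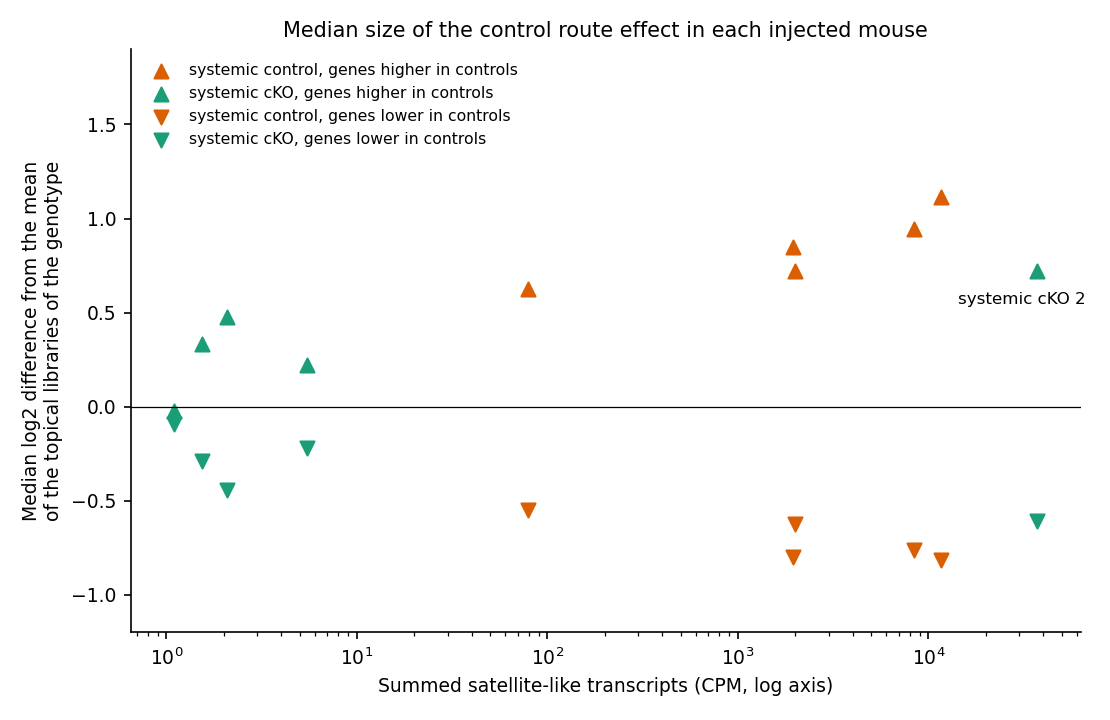
Median log2 difference from the topical mean of the same genotype, for genes higher (upward) or lower (downward triangles) in controls, in each of the 10 injected mice against summed satellite-like CPM on a log axis. Systemic cKO 2 (0.72 and -0.61) lies among the systemic controls, and the other 4 systemic cKO lie nearer 0.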

How the data were processed

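Keratinocytes sorted from ear and dorsal skin (SmartSeq II libraries, per the labels) were measured as a raw count of reads per gene. The authors aligned with STAR and made the deposited counts with featureCounts on GRCm38 (mm10), per the submitters' processing notes. Versions, annotation and strand setting are not given in the sources used here. Of 25719 genes, 12424 passed filterByExpr (minimum count 10, minimum total 15). All 20 libraries entered one edgeR 4.0.16 quasi-likelihood fit (R 4.3.3, TMM, robust, a coefficient per group), with two-sided tests adjusted by Benjamini-Hochberg over all genes tested and called at an adjusted p under 0.05. The route effect is systemic minus topical, and the genotype difference is its value in controls minus that in cKO. limma 3.58.1 and DESeq2 1.42.0 served as alternatives, and covariates (satellite-like level, mitochondrial percent, sex, library total), a replicate block, other filters and left-out mice were tried. Adding the GC and length offsets, the fits without systemic cKO 2 and the recounts of gene lists was decided after seeing the data. The edgeR scripts were tested on simulated data.

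Genes were named by rule, passing over predicted genes and clones in all but the lists: up to 12 in each direction with the smallest adjusted p, a log2 fold change of at least 1 and no overlap, up to 6 in each direction with the largest change called in both genotypes, up to 4 in each direction with the smallest adjusted p for the genotype difference, the 3 largest in each direction at 10 CPM or more, and up to 4 called members of each list by adjusted p. Further list members were chosen after their values were seen. The members and lists were chosen with earlier results of these data known, and lists are described by counts and medians with no set test. Library depth limits the precision of genes near 3 counts. Some genes that met these rules are not reported here.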

Additional observations from a re-analysis of the deposited data

Results flagged for a closer look

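Among 92 groups of 5 values looked at, 4 held a mouse far from the other 4, where chance gives about 1 in 20. Gatd3a was at 6.003 CPM in topical control 5 and 8.267 to 9.135 CPM in the other topical controls. Mettl7a1 was at 5.295 CPM in systemic control 1 and 2.369 to 2.787 CPM in the other systemic controls. Mmp13 was at 2.592 CPM in topical control 5 and 0.7882 to 1.145 CPM in the others. Systemic control 6 had 27.14 M counts against 15.58 to 18.69 M in the other systemic controls.

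The route effect differed between controls and cKO by the interaction test for 31 genes. On the log2 scale, control minus cKO was 0.9145 for Abhd11, 1.445 for Haus5, 0.75 for Med10 and 1.521 for Sulf2, and -1.502 for Rraga, -1.892 for Arpc3, -2.784 for Laptm4a and -2.054 for Ykt6. Sulf2 lost its call in controls in 7 of the 10 fits without 1 control library.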

How the results depend on the processing

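No called gene among the 150 named changed direction under the alternatives run, and 360 values lost the threshold while 3070 kept it. The number of genes called for the route in controls (2277) was 3475 with limma voom, 3497 with mitochondrial percent and 118 with the satellite-like level as a covariate (1617 at an unadjusted p under 0.05), and between 1464 (without systemic control 3) and 2523 (without systemic control 1) with 1 mouse left out. In cKO (1145) the range was 744 (without topical cKO 5) to 1215. For the genotype difference (31) it was 321 with the DESeq2 Wald test, 218 with limma voom, 49 at a mean of at least 5 CPM, 49 with sex, 364 with mitochondrial percent, 96 with GC and length offsets, 0 with the satellite-like covariate (555 unadjusted), and 16 (without systemic cKO 5) to 473 (without systemic cKO 2) with 1 mouse left out, with 150 without systemic control 1. The causes were not tested.

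With a replicate block 2183 genes were called in controls, 937 in cKO and 0 for the genotype difference by edgeR (1632 at an unadjusted p under 0.05), but same-numbered mice correlated at -0.185 to 0.275 in controls and -0.314 to 0.292 in cKO, and 1 of 4 controls correlated best with its own number. With no filter the median of all genes moved by 0.136 on the log2 scale. Depth limits genes below about 1 CPM, such as Amer2.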
